A study of Mus musculus with 8 samples.

Results

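Integrins and the proteins that anchor them to actin were followed in ribosome-bound RNA of lung endothelium. The gene set took every symbol of the integrin alpha and beta families in the count tables (18 alpha and 8 beta genes) and 13 genes of the adhesion plaque, 39 of 23238 symbols in all. The Sox17-deleted mice had the genotype Cdh5-CreERT2;Sox17fl/fl;RPL22tm1.1Psam, which allows Sox17 to be deleted from endothelial cells of the adult, and spent 3 weeks in hypoxia. The control mice had the genotype Cdh5-CreERT2; RPL22tm1.1Psam and spent 3 weeks in room air. Both groups had 4 libraries, were of the strain C57BL/6J, received 2 mg of tamoxifen a day on 5 days at 8 weeks of age, and entered the exposure at 10 weeks. Both therefore carried the tamoxifen-inducible recombinase driven by the endothelial Cdh5 promoter and the haemagglutinin tag on the ribosomal protein RPL22. Deletion and hypoxia came together in the same mice, so that their contributions cannot be told apart. The labels do not say whether each library is a mouse of its own, so the p-values speak only of the scatter among libraries, some of which may be technical. The deposited tables of Sox17-deleted hypoxic libraries 2, 3 and 4 share a stem in their names that library 1 does not have, and what it stands for is not given.

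An integrin is a heterodimer of an alpha and a beta subunit that spans the plasma membrane, binds matrix or a counter-receptor outside the cell and gathers a plaque of adaptor proteins inside it. Talin and kindlin bind the beta tail and switch the receptor to its active state, while vinculin and alpha-actinin tie the complex to actin filaments. Focal adhesion kinase, paxillin and p130Cas carry the signal onward. In endothelium, beta 1 integrins hold cells to the basement membrane of laminin and collagen IV, and the alpha subunit sets which ligand is bound.

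The values are counts of 3′ tags per gene. Such a tag gives about 1 read per transcript whatever its length, so levels of different genes were compared as CPM, counts scaled to a common library total, with no division by length. Library totals ran from 7000313 to 12913304 counts in the Sox17-deleted hypoxic group and from 10567561 to 11884614 counts in the control group. A level of 3 counts corresponds to 0.232 to 0.429 CPM. Sox17 stood at 36.6, 3.28, 0.857 and 3.67 CPM in Sox17-deleted hypoxic libraries 1 to 4, against 291, 234, 209.8 and 205 CPM in control libraries 1 to 4, lower in all 4 Sox17-deleted hypoxic libraries. Genes with at least 1 count numbered 8019 to 8708 in the Sox17-deleted hypoxic libraries and 9821 to 10429 in the control libraries. Pan-endothelial markers (13 of 13 detected) summed to 8174 to 13168 CPM in Sox17-deleted hypoxic libraries and 12296 to 13172 CPM in control libraries. In Sox17-deleted hypoxic library 4, which had the lowest endothelial sum, fibroblast markers summed to 10399 CPM, more than the endothelial markers. In the other 7 libraries the endothelial sum was the larger. Fewer cells of a type and less RNA per cell cannot be told apart in these bulk values.

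No member of the set passed the test between the groups. Of the 39 members, 22 passed the filter on low counts and 17 did not, and 5 of those 17 had no count in any library. Among the 22 tested members, edgeR's quasi-likelihood test called 0 at an adjusted p of 0.05, and it called 0% of the 8282 genes tested. The edgeR adjusted p was 0.850 for Itga1 and 0.9997 for each of the other 21. An unadjusted p under 0.05 was reached by 1 member, Itga1, higher in the Sox17-deleted hypoxic group. Of all genes tested 5.12% had one, with 2.06% higher and 3.05% lower. DESeq2 called 1 member, Itgav, which was lower, beside 4.78% of the genes for which it gives an adjusted p (3.53% lower), and limma-voom with quality weights called none, beside 0.169% of all genes tested. Fold changes were positive for 9 members and negative for 13 (median log2 fold change −0.17), beside 4110 and 4172 of all genes tested (median −0.01). In no tested member did all Sox17-deleted hypoxic libraries lie on the same side of all control libraries, which was the case for 6.59% of all genes tested (1.63% higher and 4.96% lower). A p that misses the threshold does not show that the levels were alike. The SE given with each fold change is its absolute value divided by the square root of edgeR's F value. It belongs to that fit alone and is not a bound, as other settings moved some fold changes by more than this SE.

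**Figure D1:**
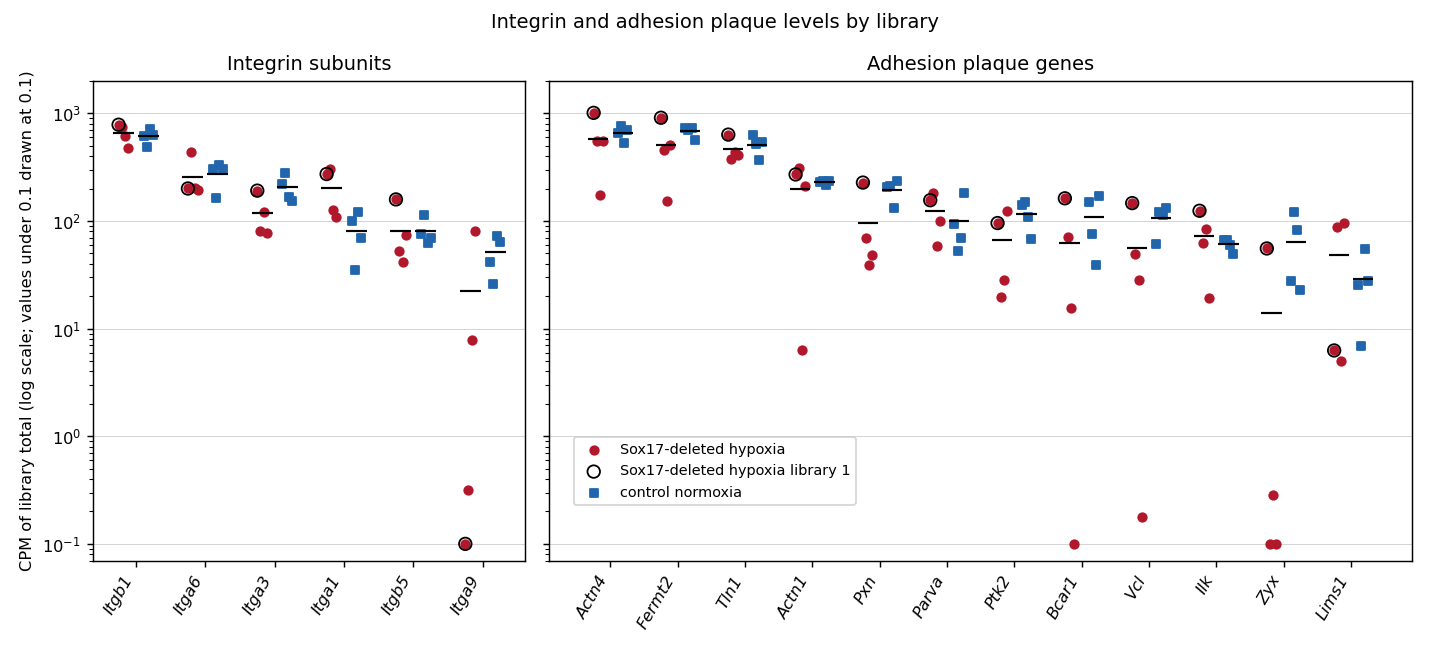
Level of the 18 tested members that averaged 30 CPM or more across the 8 libraries, in CPM of library total on a log axis. Points are libraries (red circles Sox17-deleted hypoxia, blue squares control normoxia), black lines are group means over 4 libraries, and ringed points are Sox17-deleted hypoxic library 1. Itgb1 spans 479 to 785 CPM in Sox17-deleted hypoxia and 489 to 715 CPM in control, while plaque genes such as Pxn, Vcl and Zyx were spread further in the Sox17-deleted hypoxic group.

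Itga1 was the integrin gene with the lowest p. It encodes alpha 1, which pairs with beta 1 to bind collagens, collagen IV of the basement membrane among them. The gene lies on chromosome 13 (114953096 to 115101964, minus strand, GRCm38). Itga1 had 273, 301, 126 and 109 CPM in Sox17-deleted hypoxic libraries 1 to 4, against 100.4, 35.0, 120.2 and 70.1 CPM in control libraries 1 to 4. Sox17-deleted hypoxic libraries 1, 2 and 3 were above every control library, and library 4 lay between control libraries 1 and 3. Itga1 averaged 203 ± 98.9 CPM in Sox17-deleted hypoxic libraries and 81.4 ± 37.2 CPM in control libraries (SD, n = 4 each), with a log2 fold change of 1.33 (SE 0.56). The unadjusted edgeR p was 0.0339 and the adjusted p 0.850, and over the alternative settings the adjusted p ran from 0.135 to 0.9999. The unadjusted p for Itga1 was no longer under 0.05 without Sox17-deleted hypoxic library 1 or 2, or without control library 2 or 4, and the log2 fold change then ran from 1.08 to 1.26. With no low-count filter that p was 0.0594.

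Itgav, which encodes alpha V, a receptor subunit for fibronectin, vitronectin and other ligands with an arginine-glycine-aspartate motif, was the member that DESeq2 called. Itgav had 0, 0, 0 and 0 counts in Sox17-deleted hypoxic libraries 1 to 4, against 435, 6, 219 and 23 counts in control libraries 1 to 4. Every Sox17-deleted hypoxic library was below every control library, although control library 2 had only 6 counts. Of the genes that passed edgeR's filter 4.96% were lower without overlap, but Itgav is not among those genes. The share over genes that did not pass is not given, so this separation cannot be set against a background. Itgav averaged 15.6 ± 18.95 CPM in control libraries (SD, n = 4), and set against 3 counts per library it was at least 50.1-fold lower in the Sox17-deleted hypoxic group. That bound allows for counting error in the counts of 0 only, not for the spread among libraries. The bound rested on control library 1 and was 22.8-fold without it. The DESeq2 adjusted p was 0.00301. Itgav did not pass edgeR's filter, and edgeR without a filter gave an adjusted p of 0.360. Fewer genes were detected in the same Sox17-deleted hypoxic libraries, and the part of that in the counts of 0 was not tested.

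The 250 bases before the RefSeq start sites of these 2 genes are shown because Itga1 had the lowest p of the tested members and Itgav was the member DESeq2 called. They are on build GRCm38.p6, printed 5′ to 3′ on the strand of each gene, at chr13:115101965-115102214 (minus strand) and chr2:83724147-83724396 (plus strand).
Itga1: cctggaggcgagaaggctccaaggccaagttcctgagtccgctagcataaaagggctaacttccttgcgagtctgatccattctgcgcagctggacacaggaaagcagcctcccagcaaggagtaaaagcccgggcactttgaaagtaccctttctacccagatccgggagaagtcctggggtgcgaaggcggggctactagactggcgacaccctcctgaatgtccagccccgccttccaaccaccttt
Itgav: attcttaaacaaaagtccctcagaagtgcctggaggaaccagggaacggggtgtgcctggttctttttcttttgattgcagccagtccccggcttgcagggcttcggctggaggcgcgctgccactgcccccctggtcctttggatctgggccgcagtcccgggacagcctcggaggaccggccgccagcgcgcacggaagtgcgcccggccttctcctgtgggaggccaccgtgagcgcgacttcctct
Both windows were searched on both strands for a SOX core (ACAAT, or ATTGT in reverse) and for a hypoxia response element core (ACGTG or GCGTG, or CACGT or CACGC in reverse), matches of which would stand in capitals. Neither window held either motif. The SOX core was in 27.7% of the 32851 promoter windows of the same length and in 8 of the 33 windows of members. Those windows belonged to 7 of the 27 members that have one: Bcar1, Itga5, Itga8, Itga9, Itgax, Itgb6 and Lims1. The hypoxia response element core was in 38.6% of all windows and in 12 of the 33 windows of members. These belonged to 10 of the 27 members: Actn1, Actn4, Bcar1, Ilk, Itga2, Itga9, Itgax, Itgb5, Lims1 and Vcl. These are matches of letters, not sites. Members with no entry in the promoter table were Itga6, Itga7, Itgad, Itgae, Itgal, Itgb2, Itgb3, Itgb4, Tln2, Pxn, Ptk2 and Parva.

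Laminin-binding alpha subunits were the most abundant of their family in control lungs. Itga6, whose product pairs with beta 1 or beta 4, had 201, 441, 201 and 194 CPM in Sox17-deleted hypoxic libraries 1 to 4, against 305, 163, 334 and 303 CPM in control libraries 1 to 4. The groups overlapped, and Sox17-deleted hypoxic library 2 stood highest of all 8. Its log2 fold change was −0.09, SE 0.40. Itga3, which encodes the other main laminin-binding subunit, had 192, 81.3, 120.4 and 76.7 CPM in Sox17-deleted hypoxic libraries 1 to 4, against 220.4, 282, 169 and 155 CPM in control libraries 1 to 4. Sox17-deleted hypoxic libraries 2, 3 and 4 were below every control library and library 1 was among them. Itga3 averaged 118 ± 53.2 CPM in Sox17-deleted hypoxic libraries and 206 ± 57.4 CPM in control libraries (log2 fold change −0.79, SE 0.49).

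Collagen-binding Itga1 took a larger part of the alpha family in every Sox17-deleted hypoxic library. Its share of all integrin alpha counts was 38.7%, 32.0%, 27.6% and 21.1% in Sox17-deleted hypoxic libraries 1 to 4, against 12.7%, 6.07%, 15.9% and 11.3% in control libraries 1 to 4. These shares did not overlap between the groups, although the level of Itga1 in CPM did. How often other genes separate as a share of their family is not given. The share was chosen after the values were seen and was not tested, and a member's share also moves when other members move. Its exact 95% binomial interval was at most 1.58 points to either side in any library, if each read is an independent draw. Reads of the same molecule are not told apart, so the interval can understate even counting error. It leaves out the spread among libraries. Itga3 and Itga6 together held 55.6%, 55.4%, 70.4% and 52.4% in Sox17-deleted hypoxic libraries 1 to 4, against 66.3%, 77.1%, 66.7% and 73.7% in control libraries 1 to 4. The summed level of all alpha genes was 457 to 943 CPM in Sox17-deleted hypoxic libraries and 576 to 792 CPM in control libraries.

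**Figure D2:**
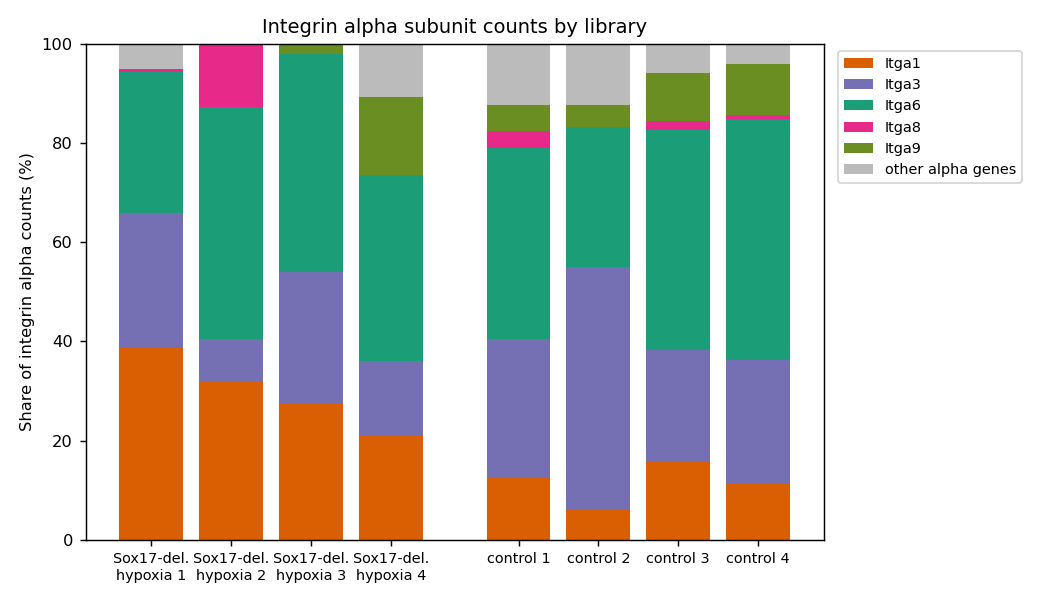
Share of integrin alpha counts taken by each alpha gene, in percent of the summed counts of the 18 alpha genes, with a bar for each library (Sox17-deleted hypoxia left, control normoxia right). The Itga1 share ran from 21.1% to 38.7% in Sox17-deleted hypoxic libraries and from 6.07% to 15.9% in control libraries.

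Markers of cells around the endothelium were counted beside Itga1, whose transcript is also found in smooth muscle cells and fibroblasts. Smooth muscle and pericyte markers (13 of 14 detected, Lmod1 at 0) summed to 172, 386, 65.4 and 667 CPM in Sox17-deleted hypoxic libraries 1 to 4 and 116, 118, 89.8 and 186 CPM in control libraries 1 to 4. Fibroblast markers (14 of 14 detected) summed to 2265, 3734, 1359 and 10399 CPM in Sox17-deleted hypoxic libraries 1 to 4 and 1339, 1618, 1582 and 1425 CPM in control libraries 1 to 4. Both sums were highest in Sox17-deleted hypoxic library 4, followed by library 2. Itga1 was lowest of that group in library 4 and highest in library 2. Alveolar type 2 markers (11 of 11 detected) summed to 2009 to 4228 CPM in Sox17-deleted hypoxic libraries and 934 to 1287 CPM in control libraries, with no overlap. Club and ciliated markers (8 of 9, Epcam at 0) summed to 2634 to 5783 CPM in Sox17-deleted hypoxic libraries and 1293 to 2369 CPM in control libraries, also with no overlap. Alveolar type 1 markers (9 of 9 detected) summed to 1895 to 2877 CPM in Sox17-deleted hypoxic libraries and 2381 to 3001 CPM in control libraries. Mesothelial markers (3 of 6, with Upk3b, Lrrn4 and Wt1 at 0) summed to 0 to 31.0 CPM in Sox17-deleted hypoxic libraries and 0 to 16.6 CPM in control libraries. The part of these cells in the level of Itga1 or of any other member was not tested.

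Alpha 9 and alpha 8 varied from library to library. Itga9, whose product pairs with beta 1 and is known for its role in lymphatic valves, had 0, 0.318, 7.86 and 81.1 CPM in Sox17-deleted hypoxic libraries 1 to 4, against 41.6, 25.7, 73.1 and 64.5 CPM in control libraries 1 to 4. Sox17-deleted hypoxic library 4 was the highest of all 8 and the other 3 of its group were the lowest. The log2 fold change was −1.21, SE 1.82, and −4.06 without Sox17-deleted hypoxic library 4. Itga8, which encodes an alpha subunit known from fibroblasts and other contractile cells, had 52, 1121, 0 and 0 counts in Sox17-deleted hypoxic libraries 1 to 4, against 285, 1, 163 and 45 counts in control libraries 1 to 4. Its log2 fold change of 1.38 (SE 2.45) rested on Sox17-deleted hypoxic library 2 and was −3.04 without that library. Without control library 1 it was 2.29.

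Beta subunits were dominated by Itgb1, the partner of most endothelial alpha chains, on chromosome 8 (128685654 to 128733200, plus strand, GRCm38). Itgb1 had 785, 746, 612 and 479 CPM in Sox17-deleted hypoxic libraries 1 to 4, against 613, 489, 715 and 629 CPM in control libraries 1 to 4. The groups covered nearly the same range, with coefficients of variation of 21.3% in the Sox17-deleted hypoxic group and 15.2% in the control group, and the means were 656 ± 139 CPM in Sox17-deleted hypoxic libraries and 611 ± 93.2 CPM in control libraries. Its log2 fold change was 0.12, SE 0.30. Itgb1 supplied 71.7% to 93.4% of integrin beta counts in the Sox17-deleted hypoxic libraries and 76.6% to 89.2% in the control libraries. The summed level of all beta genes was 668 to 968 CPM in Sox17-deleted hypoxic libraries and 638 to 830.1 CPM in control libraries.

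Itgb5, whose product pairs with alpha V to bind vitronectin, had 159, 52.3, 41.3 and 73.5 CPM in Sox17-deleted hypoxic libraries 1 to 4, against 75.7, 115, 62.5 and 69.2 CPM in control libraries 1 to 4. Sox17-deleted hypoxic library 1 was the highest and libraries 2 and 3 were the lowest, and the log2 fold change was 0.02, SE 0.72. The sign of that value was negative with upper-quartile scaling, while the other 3 tested beta genes kept a positive sign under each of the 4 scalings. Itgb3, which encodes beta 3 of the platelet and endothelial vitronectin receptors, had 0, 0, 237 and 774 counts in Sox17-deleted hypoxic libraries 1 to 4, against 173, 189, 9 and 82 counts in control libraries 1 to 4. Itgb4, the beta subunit of hemidesmosomes, had 32, 1, 2 and 515 counts in Sox17-deleted hypoxic libraries 1 to 4, against 68, 16, 250 and 0 counts in control libraries 1 to 4. Its log2 fold change was 0.73 (SE 2.34) and was −2.85 without Sox17-deleted hypoxic library 4, the library with the highest fibroblast markers. Without control library 3 it was 2.13. The log2 fold change of Itgb3 was 1.33, SE 2.34, and 0.28 without Sox17-deleted hypoxic library 4.

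Leukocyte and platelet integrins were at or near 0 in most libraries. Itgal, Itgam and Itgax encode alpha subunits that pair with beta 2 on leukocytes. Itgal had at most 1 count in the Sox17-deleted hypoxic libraries, against 494 counts in control library 1 and 0 in the other control libraries. Itgam had 0 counts in the Sox17-deleted hypoxic libraries, against 39, 1, 0 and 9 counts in control libraries 1 to 4. Itgax reached 285 counts in library 4 of the Sox17-deleted hypoxic group, 117 in control library 4 and 0 in the others. Their beta partner Itgb2 had 270, 0, 0 and 2 counts in Sox17-deleted hypoxic libraries 1 to 4, against 0, 1, 355 and 0 counts in control libraries 1 to 4. The lymphocyte genes Itgae and Itgb7 had 0 counts and at most 2 counts, and Itgad had 0. Itga2b, the platelet fibrinogen receptor alpha chain, had 0 counts in the Sox17-deleted hypoxic libraries, against 66 in control library 1, 15 in control library 4 and 0 in the other control libraries. Macrophage, monocyte and neutrophil markers (18 of 19 detected, Adgre1 at 0) summed to 334 to 933 CPM in Sox17-deleted hypoxic libraries and 308 to 366 CPM in control libraries. This list shares a gene with the alveolar type 2 markers, so these sums are not independent. Lymphocyte markers (10 of 14 detected, with Cd8a, Ms4a1 and Klrb1c among those at 0) summed to 0 to 174 CPM in Sox17-deleted hypoxic libraries and 0.0859 to 30.9 CPM in control libraries. Platelet markers (5 of 12 detected, with Gp9, Gp1ba, Gp5, Gp6, Treml1 and Tubb1 among those at 0) summed to 0 to 11.3 CPM in Sox17-deleted hypoxic libraries and 1.26 to 67.8 CPM in control libraries.

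The other alpha and beta genes were low or seen in few libraries. Itga5, the alpha chain of the main fibronectin receptor, had 465, 0, 0 and 0 counts in Sox17-deleted hypoxic libraries 1 to 4, against 0, 194, 64 and 0 counts in control libraries 1 to 4. Itga4, which pairs with beta 1 or beta 7, reached 333 counts in library 4 of the Sox17-deleted hypoxic group, 135 in control library 4, and at most 5 in the others. Itga2, which encodes a collagen-binding subunit, had at most 5 counts in the Sox17-deleted hypoxic libraries, against 574 and 232 in control libraries 2 and 3 and 0 in the other control libraries. Itgb6, an epithelial subunit, had 0 counts in the Sox17-deleted hypoxic libraries, against 176 in control library 2 and at most 1 in the other control libraries. Itga7 did not exceed 4 counts in any library. Itga10, Itga11, Itgad, Itgae and Itgb8 had 0 counts in all 8 libraries. A count of 0 allows a level of up to 3 counts, or 0.232 to 0.429 CPM, by counting error only.

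**Figure D3:**
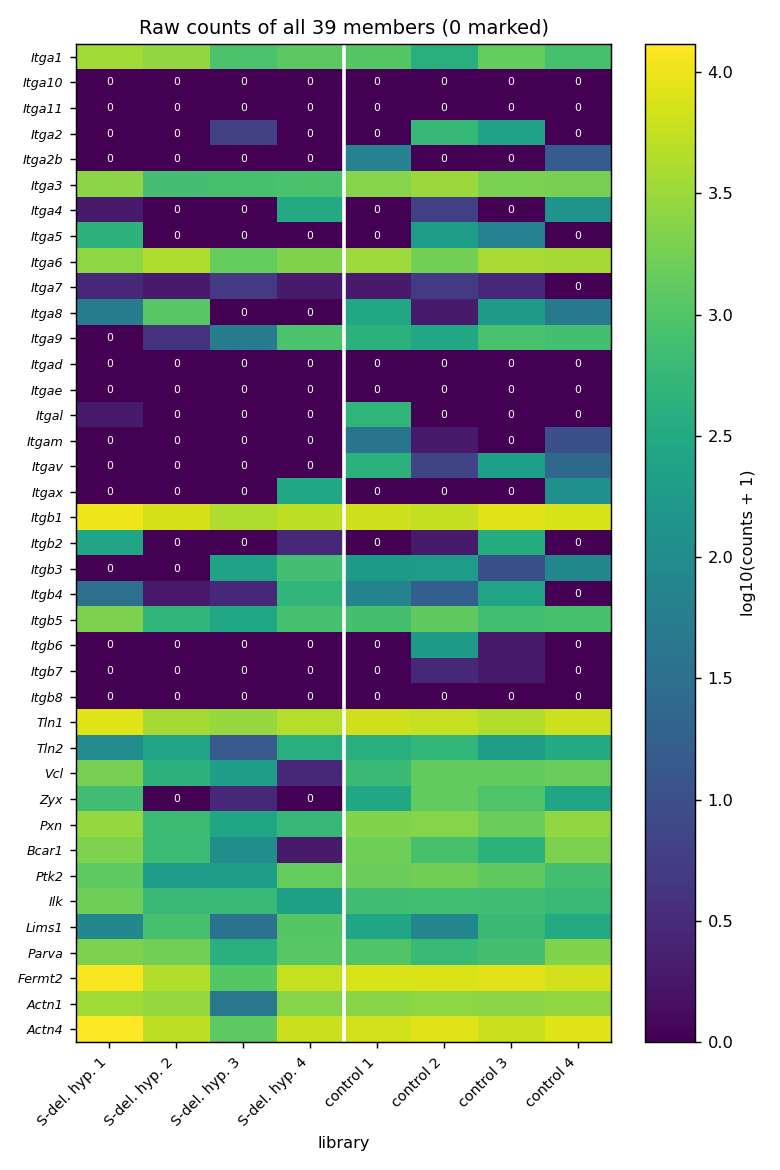
Raw counts of the 39 members in each library, as log10(counts + 1), with 0 written in cells without a count (Sox17-deleted hypoxia left of the white line, control normoxia right of it). The 5 genes with 0 in all libraries, and genes such as Itga5 and Itgal that are well counted in some libraries and at 0 in others, stand out.

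In the adhesion plaque, 10 of 13 genes had a negative fold change and none was called. The count was 10 of 13 under each of the 4 scalings tried, 8 of 13 without Sox17-deleted hypoxic library 3 and 7 of 13 with the 3 libraries of a shared name stem summed. The median log2 fold change of these 13 was −0.43, beside −0.01 over all genes tested. It was −0.14 without Sox17-deleted hypoxic library 3, −0.03 with the 3 libraries summed and −0.71 without Sox17-deleted hypoxic library 1. Their summed level was 3813, 2274, 1036 and 2103 CPM in Sox17-deleted hypoxic libraries 1 to 4 and 3043, 3074, 2533 and 2962 CPM in control libraries 1 to 4. Sox17-deleted hypoxic library 1 was above every control library in this sum and libraries 2, 3 and 4 were below every control library.

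Talin and kindlin genes encode the activators that bind the beta tail. Tln1, which encodes talin 1, had 636, 380.0, 437 and 411 CPM in Sox17-deleted hypoxic libraries 1 to 4, against 627, 517, 372 and 538 CPM in control libraries 1 to 4. The groups overlapped and the log2 fold change was −0.12, SE 0.33. Tln2, its less abundant paralogue, had 95, 249, 13 and 374 counts in Sox17-deleted hypoxic libraries 1 to 4, against 382, 531, 200 and 329 counts in control libraries 1 to 4 (log2 fold change −0.95, SE 1.61). Fermt2, which encodes kindlin-2, the kindlin of endothelium, had 912, 458, 155 and 506 CPM in Sox17-deleted hypoxic libraries 1 to 4, against 727, 702, 733 and 568 CPM in control libraries 1 to 4. Sox17-deleted hypoxic library 1 was the highest of all 8 and libraries 2, 3 and 4 were below every control library, whose levels varied by a coefficient of only 11.4%. Fermt2 had a log2 fold change of −0.43, SE 0.42.

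Among the links to actin, Vcl, which encodes vinculin, had 147, 49.2, 28.1 and 0.179 CPM in Sox17-deleted hypoxic libraries 1 to 4, against 61.0, 121, 114 and 131 CPM in control libraries 1 to 4. Sox17-deleted hypoxic library 1 was above every control library, and libraries 2, 3 and 4 were below them, with 2 counts in library 4. Its log2 fold change was −0.90, SE 1.13. The value was −2.01 without library 1, −0.49 without library 4 and −0.29 with the libraries of a shared name stem summed. Zyx, on chromosome 6 (42349630 to 42360213, plus strand, GRCm38), encodes zyxin, a LIM protein that gathers at adhesions under tension, and had 718, 0, 2 and 0 counts in Sox17-deleted hypoxic libraries 1 to 4, against 292, 1352, 971 and 271 counts in control libraries 1 to 4. Library 1 was the only one of its group above 2 counts, and it lay within the range of the control libraries. Zyx had a log2 fold change of −2.17, SE 2.05. Without library 1 it was −9.18, a fitted value against libraries at or near 0. It was −1.62 without control library 2 and −1.18 with the libraries of a shared name stem summed.

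The alpha-actinins cross-link actin filaments and bind integrin tails. Actn1 had 271, 308, 6.29 and 209.9 CPM in Sox17-deleted hypoxic libraries 1 to 4, against 228, 236, 215 and 238 CPM in control libraries 1 to 4. The 4 control libraries were within a coefficient of variation of 4.55%, and Sox17-deleted hypoxic library 3, with 44 counts, was far under all others. The log2 fold change was −0.24, SE 0.71. Actn4 had 1012, 558, 175 and 554 CPM in Sox17-deleted hypoxic libraries 1 to 4, against 654, 765, 530.0 and 703 CPM in control libraries 1 to 4 (log2 fold change −0.21, SE 0.42). Sox17-deleted hypoxic library 1 was again the highest and library 3 the lowest.

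Signalling adaptors of the plaque were mostly lower in libraries 2, 3 and 4. Pxn, which encodes paxillin, lies on chromosome 5 (115506676 to 115555987, plus strand, GRCm38). It had 228, 69.8, 39.4 and 48.5 CPM in Sox17-deleted hypoxic libraries 1 to 4, against 205, 211, 133 and 234 CPM in control libraries 1 to 4. Library 1 was within the control range and the other 3 Sox17-deleted hypoxic libraries were below every control library. Pxn averaged 96.3 ± 88.5 CPM in Sox17-deleted hypoxic libraries and 196 ± 43.6 CPM in control libraries (log2 fold change −1.01, SE 0.61). Bcar1, which encodes the scaffold p130Cas, had 163, 70.5, 15.6 and 0.0896 CPM in Sox17-deleted hypoxic libraries 1 to 4, against 152, 75.4, 39.2 and 172 CPM in control libraries 1 to 4. The groups overlapped, with Sox17-deleted hypoxic libraries 3 and 4 below every control library (log2 fold change −0.82, SE 1.21, and −1.97 without library 1). Ptk2, the focal adhesion kinase gene, had 95.8, 19.6, 28.3 and 125 CPM in Sox17-deleted hypoxic libraries 1 to 4, against 140.1, 151, 110.1 and 68.2 CPM in control libraries 1 to 4. Sox17-deleted hypoxic libraries 2 and 3 were below every control library, and libraries 1 and 4 were within the control range (log2 fold change −0.81, SE 0.74).

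Genes of the ILK, PINCH and parvin complex, which docks on the beta tail, had the 3 positive fold changes of the plaque. Ilk, which encodes the scaffold integrin-linked kinase, had 125, 62.1, 84.7 and 19.2 CPM in Sox17-deleted hypoxic libraries 1 to 4, against 66.9, 66.5, 60.3 and 49.7 CPM in control libraries 1 to 4 (log2 fold change 0.30, SE 0.83). Sox17-deleted hypoxic libraries 1 and 3 were above every control library and library 4 was below them. Lims1, which encodes PINCH-1, had 6.27, 87.4, 5.00 and 96.1 CPM in Sox17-deleted hypoxic libraries 1 to 4, against 25.3, 6.96, 55.5 and 27.9 CPM in control libraries 1 to 4 (log2 fold change 0.72, SE 1.40). Parva, which encodes alpha-parvin, had 156, 184, 58.9 and 101 CPM in Sox17-deleted hypoxic libraries 1 to 4, against 93.5, 52.9, 69.8 and 182 CPM in control libraries 1 to 4 (log2 fold change 0.32, SE 0.61). Both of these overlapped between the groups.

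**Figure D4:**
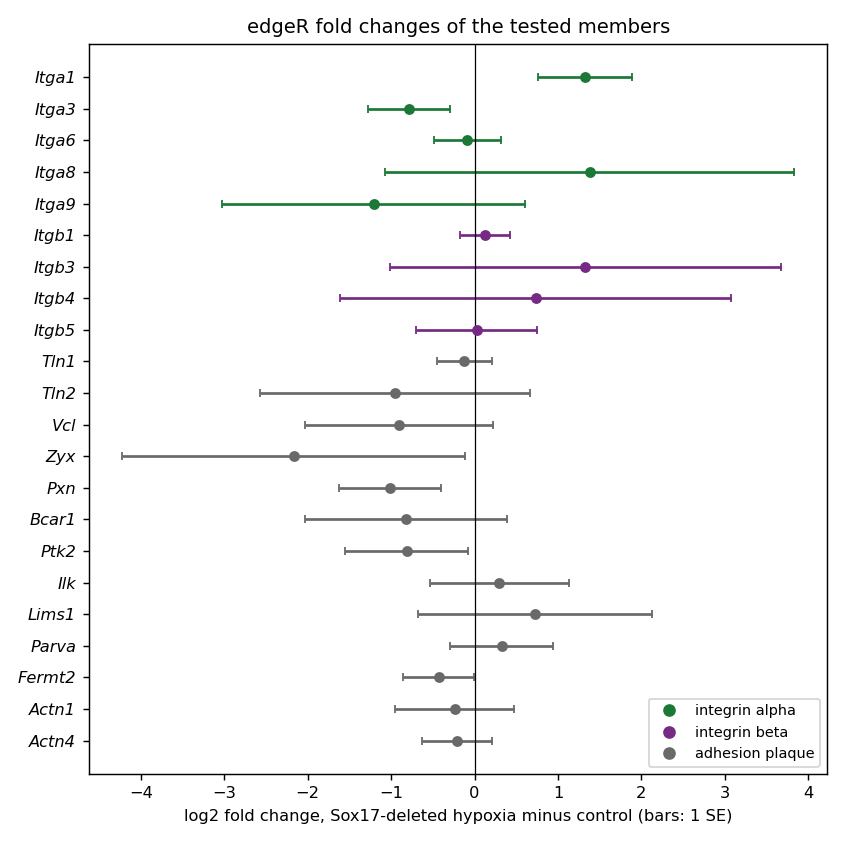
edgeR log2 fold change (Sox17-deleted hypoxia minus control) of the 22 tested members, with bars of 1 SE and colours for alpha, beta and plaque genes. Itga1 is at 1.33, Itgb1 at 0.12 and Pxn at −1.01, and bars are widest for genes with counts in few libraries, such as Itga8, Itgb3 and Itgb4.

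For 8 of the 13 plaque genes Sox17-deleted hypoxic library 1 was above the other 3 of its group, and for 5 (Tln2, Ptk2, Lims1, Parva and Actn1) it lay within their range. It was the highest of all 8 libraries for 7 of the 18 members that averaged 30 CPM or more (Itgb1, Itgb5, Tln1, Vcl, Ilk, Fermt2 and Actn4). Library 3 was the lowest for 6 and library 4 for 5. Library 1 also kept 473 counts of Sox17, against 6 to 41 counts in the other 3 of its group, the same 3 whose tables share a name stem. The part of either in the plaque values was not tested. Library 1 was singled out after these values were seen, and it was the highest of its group for 8 of the 13 plaque genes. Values without it are therefore lower partly through that choice, and no support is drawn from them. The shares over all genes given beside them were not chosen in that way. Without library 1, 5 of the 22 tested members lay below every control library (Itga3, Vcl, Zyx, Pxn and Fermt2), beside 9.65% of the 8282 genes, and none lay above. In the same 3 against 4 libraries 11 of 13 plaque genes had a negative fold change (median −0.71, beside −0.07 over 9048 genes tested). Pxn was then at 52.6 ± 15.6 CPM (SD, n = 3), against 196 ± 43.6 CPM in control libraries (SD, n = 4), with a log2 fold change of −1.89, an edgeR unadjusted p of 0.00465 and an adjusted p of 0.300. Unadjusted p values under 0.05 were also found for Zyx, Fermt2 and Itgav, all lower, beside 8.10% of genes lower at that level. No member was called by edgeR without library 1, and the lowest adjusted p was 0.251 for Zyx.

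**Figure D5:**
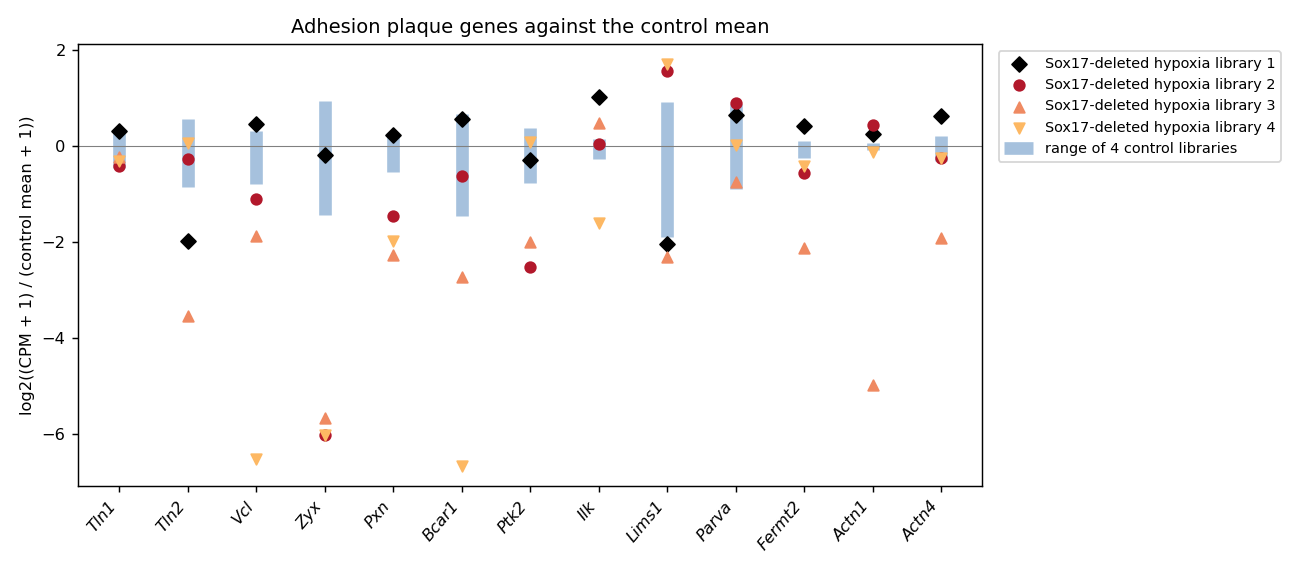
Level of the 13 plaque genes in each Sox17-deleted hypoxic library relative to the mean of the 4 control libraries, as log2 of the ratio of CPM + 1. Blue bands span the 4 control libraries. Library 1 (black diamonds) is above the control band for Tln1, Vcl, Ilk, Fermt2, Actn1 and Actn4, while libraries 2, 3 and 4 are below the band for Vcl, Zyx, Pxn and Fermt2.

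Spread within the Sox17-deleted hypoxic group was larger than within the control group for 21 of the 22 tested members, Parva being the exception. Their median coefficient of variation was 72.1% in Sox17-deleted hypoxic libraries and 30.5% in control libraries, beside 96.1% in Sox17-deleted hypoxic and 58.6% in control libraries over all genes tested, in which 6595 of 8282 had the larger spread in the Sox17-deleted hypoxic group. Of the 18 members that averaged 30 CPM or more, 4 (Itga9, Vcl, Zyx and Bcar1) had a Sox17-deleted hypoxic library with 3 counts or fewer and 0 had such a control library. Over all tested genes at that level the share with such a library was 28.8% in the Sox17-deleted hypoxic group and 6.85% in the control group.

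Some members share exon bases with a neighbour, and how the authors' counting treated strand is not given. Actn4 overlaps Capn12 on the opposite strand. Capn12 had 7201, 4248, 555 and 3708 counts in Sox17-deleted hypoxic libraries 1 to 4, against 4485, 5444, 3630 and 4939 counts in control libraries 1 to 4. Like Actn4, Capn12 was highest in Sox17-deleted hypoxic library 1 and lowest in library 3, and tags of the pair cannot be told apart here. Ilk overlaps Taf10 and Rrp8, Tln1 overlaps Creb3, Vcl overlaps Ap3m1, and Zyx overlaps Epha1, which had 0 counts in all 8 libraries. Itga1 overlaps the gene model Gm49395 on its own strand. Noncoding models on the opposite strand overlap Actn1, Itga8 and Itgb4, and also Itgav, where the model is Gm13684.

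Other genes of the pathway were counted as 4 lists. Of 26 tested partners in the plaque, 10 were higher and 16 lower (median −0.12), with none called by edgeR. The most abundant were Tns1, which encodes tensin-1 (608 ± 169.7 CPM in Sox17-deleted hypoxic libraries and 678 ± 55.6 CPM in control libraries), the LIM protein gene Csrp1 (495 ± 238 CPM in Sox17-deleted hypoxic libraries and 218 ± 69.2 CPM in control libraries) and Pdlim1 (439.6 ± 281 CPM in Sox17-deleted hypoxic libraries and 285 ± 91.2 CPM in control libraries). Among the partners described here, which were chosen for a high level or a low p, Csrp1 and Flna had an unadjusted edgeR p under 0.05. Both were higher, as were 2.06% of all genes tested at that p. Flna encodes filamin A, which cross-links actin and binds beta tails. It had 200.4, 249, 343 and 329 CPM in Sox17-deleted hypoxic libraries 1 to 4, against 87.6, 82.9, 188 and 74.2 CPM in control libraries 1 to 4. Every Sox17-deleted hypoxic library was above every control library, as for 1.63% of all genes tested (log2 fold change 1.42, SE 0.45, edgeR adjusted p = 0.403).

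Of 32 tested genes of integrin signalling and recycling, 17 were higher and 15 lower (median 0.06, and −0.03 with upper-quartile scaling, which gave 16 higher and 16 lower), with none called. The small GTPase gene Rhoa was at 937 ± 259 CPM in Sox17-deleted hypoxic libraries and 1058 ± 93.1 CPM in control libraries, Rras at 769.7 ± 78.8 CPM in Sox17-deleted hypoxic libraries and 957 ± 359.6 CPM in control libraries, and Rab11a, of the recycling endosome, at 537 ± 172 CPM in Sox17-deleted hypoxic libraries and 475 ± 53.7 CPM in control libraries. Rac1, which drives lamellipodia, was at 323 ± 195 CPM in Sox17-deleted hypoxic libraries and 602 ± 39.3 CPM in control libraries, below every control library in all 4 (log2 fold change −0.87, SE 0.48, edgeR adjusted p = 0.9997). Of all genes tested, 4.96% were lower without overlap. Arf6, a GTPase of integrin recycling, was at 64.6 ± 57.5 CPM in Sox17-deleted hypoxic libraries and 135 ± 41.5 CPM in control libraries.

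Of 13 tested membrane partners, 4 were higher and 9 lower (median −0.29), with none called. Nrp1 was at 1251 ± 635 CPM in Sox17-deleted hypoxic libraries and 1610.3 ± 139 CPM in control libraries, Kdr, the main VEGF receptor gene, at 985 ± 415 CPM in Sox17-deleted hypoxic libraries and 1089 ± 148 CPM in control libraries, and Slc3a2, the CD98 heavy chain gene, at 661 ± 662 CPM in Sox17-deleted hypoxic libraries and 1055 ± 164 CPM in control libraries. The lowest unadjusted p values were those of Cav1, which encodes caveolin-1 (551 ± 109 CPM in Sox17-deleted hypoxic libraries and 882 ± 208 CPM in control libraries), and the tetraspanin gene Cd9 (96.6 ± 75.2 CPM in Sox17-deleted hypoxic libraries and 198 ± 94.3 CPM in control libraries).

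Of 25 tested integrin ligands, 12 were higher and 13 lower (median −0.07, and 0.02 with RLE size factors, which gave 14 higher and 11 lower), with none called. Icam2, a ligand of leukocyte integrins, was at 1419 ± 310.1 CPM in Sox17-deleted hypoxic libraries and 1085 ± 225 CPM in control libraries. Col4a1 and Col4a2 encode collagen IV, a ligand of alpha 1 beta 1. Col4a1 was at 378 ± 91.0 CPM in Sox17-deleted hypoxic libraries and 405 ± 45.9 CPM in control libraries. Col4a2 was at 379 ± 115 CPM in Sox17-deleted hypoxic libraries and 449 ± 71.9 CPM in control libraries. Nid1, which encodes nidogen-1, a linker of laminin and collagen IV, had 54.6, 38.8, 24.6 and 46.6 CPM in Sox17-deleted hypoxic libraries 1 to 4, against 118, 147, 131 and 113 CPM in control libraries 1 to 4. Every Sox17-deleted hypoxic library was below every control library, as for 4.96% of all genes tested (log2 fold change −1.62, SE 0.66, edgeR unadjusted p = 0.0282, adjusted p = 0.800). Icam1 was at 140.3 ± 147 CPM in Sox17-deleted hypoxic libraries and 383 ± 173 CPM in control libraries (log2 fold change −1.43, SE 0.63, edgeR adjusted p = 0.890).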

How the data were processed

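Translating ribosomes of lung endothelial cells were pulled down by the haemagglutinin tag on RPL22, and their RNA was made into QuantSeq 3′ libraries, per the labels' protocols. The authors deposited a table of raw counts per gene symbol for each of the 8 libraries. Bowtie2, bedtools and build mm10 are named in the submitters' processing notes, with no versions, and how strand was handled is not stated. The 44 repeated rows of each table were summed. Levels are CPM, counts scaled by the library total. Groups were compared with edgeR 4.0.16 (quasi-likelihood test, TMM factors, filterByExpr, Benjamini-Hochberg adjusted p under 0.05 over 8282 genes) in R 4.3.3. The script was checked on simulated data. Alternatives were other scalings and filters, DESeq2 1.42.0, limma 3.58.1 (voom), a replicate block, a sum of 3 libraries and leaving out each library. Members and lists were chosen with earlier results of these data known. Full values are given for tested members averaging 30 CPM or more, and in each pathway list for the most abundant genes and those with the lowest p; a few genes that this rule or a marker list would name are not reported here. Gene positions are from GENCODE M21 (GRCm38) and promoters from RefSeq (GRCm38.p6).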

Additional observations from a re-analysis of the deposited data

Results flagged for a closer look

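A library of a group of 4 was looked at again for its gap to the nearest other library, as a part of the range. The gap had to pass Dixon's critical value, which chance gives in about 1 in 20 groups if the values are normally distributed. Of 44 groups (22 members in both conditions), 6 had such a library, all among Sox17-deleted hypoxic libraries. Library 1 stood apart for Pxn at 228 CPM and for Zyx at 55.6 CPM. Library 2 stood apart for Itga6 at 441 CPM and for Itga8 at 119 CPM. Library 4 stood apart for Itga9 at 81.1 CPM and for Itgb4 at 46.1 CPM. In each of the 6 the library was the highest of its group. The CPM of groups such as Zyx and Itga8, with libraries at or near no count, are skewed rather than normally distributed. The share of all genes with such a library is not given. The 6 of 44 groups therefore cannot be set against the rate of 1 in 20, and no excess is drawn from them. Fibroblast markers were at 10399 CPM in library 4, and the part of this in Itga9 and Itgb4 was not tested.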

How the results depend on the processing

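Genes called by edgeR numbered 0 of 8282, and 424 had an unadjusted p under 0.05. The number called was 17 with no low-count filter, 4 with a stricter floor on the mean level, 469 with DESeq2, 14 with limma-voom, 1 with robust estimation, 1 with the 3 libraries of a shared name stem summed, and 0 to 5 with a library left out. Members called numbered 0, 1 with DESeq2 (Itgav) and 0 with any library left out. Members at an unadjusted p under 0.05 numbered 1 (Itga1), 3 with no filter (Itga2b, Itgam and Itgav, not Itga1), 2 with DESeq2, 2 with limma-voom, 2 with the stem summed, and 0 to 4 with a library left out (4 without Sox17-deleted hypoxic library 1, 0 without control library 4). Among the 22 tested members, those whose groups did not overlap numbered 0, beside 6.59% of all genes tested, and 0 to 5 with a library left out. They numbered 5 without Sox17-deleted hypoxic library 1, all lower, beside 9.65% of genes. They numbered 2 without library 4, where 2.78% of the genes then tested were higher and 8.64% lower. Without control library 3 there was 1, beside 2.08% higher and 6.36% lower. Itgav, which is not among the 22, did not overlap between the groups with all 8 libraries. The share of 6.59% covers only genes that passed the filter, and that over the other genes is not given. Same-numbered libraries did not deviate together (correlations −0.02 to 0.02 over 8282 genes), and with the replicate number as a block edgeR called 0 genes and 0 members, with 1 member at an unadjusted p under 0.05 (Zyx, while Itga1 was at 0.0798). Itga9 was at −4.65 with limma-voom and −4.67 with the block, and Zyx at −6.83 and −8.47.

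The sign of the log2 fold change turned for 10 of the 22 members, none of them called; the cause was not tested. Itga6 was at 0.011 with RLE size factors and 0.011 with DESeq2. With limma-voom Itga8 was at −2.06, Itgb3 at −2.04 and Ilk at −0.16. With the replicate block Itga8 was at −4.49, Itgb3 at −2.40, Itgb4 at −2.23, Itgb5 at −0.13 and Lims1 at −0.041. Itgb5 was at −0.045 with upper-quartile factors. With the stem summed Tln1 was at 0.042, Actn1 at 0.036 and Actn4 at 0.17. With a library left out, Itga6 ran from −0.39 to 0.044, Itga8 from −3.04 to 2.29, Itgb4 from −2.85 to 2.13, Itgb5 from −0.52 to 0.26, Tln1 from −0.28 to 0.030, Ilk from −0.047 to 0.62, Actn1 from −0.50 to 0.16 and Actn4 from −0.65 to 0.072. The scalings moved the median of all genes to between −0.09 (upper quartile) and 0.08 (RLE), against −0.01 with TMM. By counting error only, a count of 0 allows a level of up to 0.232 to 0.429 CPM. That limit leaves out the spread among libraries, as for Zyx with 718, 0, 2 and 0 counts in Sox17-deleted hypoxic libraries 1 to 4.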
